A study of Saccharomyces cerevisiae with 4 samples.

Results

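Loss of the repressor Ume6 in otherwise wild-type budding yeast was described by setting the ume6∆ library beside the WT library, which are 2 of the 4 libraries sequenced. RNA depleted of ribosomal RNA came from haploid strains of the BY4741/2 background, all marked his-ura-leu-, with 1 library a strain. The labels name no further change for WT, and for ume6∆ they name ume6-delta:KanMX, a drug resistance cassette at UME6. RNA of MET17, given below, was nearly absent from WT, ume6∆ and snf2∆, which the marker label does not name. A second pair of libraries is used for comparison, snf2∆ (snf2-delta:NatMX) and ume6∆snf2∆, the double deletion with both cassettes. Cultures were taken in mid-log growth in YPD, a rich medium whose sugar is glucose. The deposited expression values are RPKM, which divide the reads of a gene by its length and by the size of the library, for 6659 genes. Each library was divided by its median ratio to the gene geometric mean, and every RPKM printed here is a value after that scaling. A change is a difference of log2(scaled RPKM + 1), and a gene is called higher or lower at 2-fold. Genes with a mean of at least 10 deposited RPKM over the 4 libraries were kept, which left 5858 genes, and UME6 itself was left out. Each strain has 1 library, so differences have no replicate check and carry no p-value. Intervals on ratios are 95% Clopper-Pearson intervals for counting error alone.

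Ume6 is a zinc cluster protein that binds the URS1 element, whose core reads GGCGGC, and recruits the Sin3-Rpd3 histone deacetylase and the Isw2 remodeler. It is best known for keeping early meiotic genes silent in growing cells. Its other known targets include genes of inositol synthesis, arginine breakdown and acetate use. Snf2, missing from the second pair, is the motor subunit of the Swi/Snf nucleosome remodeler, which opens many promoters.

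The deleted gene followed the labels. UME6 had 32.7 RPKM in WT and 19.9 in snf2∆, against 0.0154 in ume6∆, which is 1 read, and 0.125 in the double deletion. WT and ume6∆ were both of the a mating type by their transcripts. STE2, which encodes the alpha-factor receptor, was at 394 RPKM in WT and 345.5 in ume6∆. STE3, which encodes the a-factor receptor, was at 3.40 and 4.44 RPKM in them. In the second pair STE2 had 6.39 and 14.3 RPKM and STE3 168 and 137, so both of its strains were of the alpha type by their transcripts. A comparison within either pair does not cross mating type, while one between the pairs does. MET17 and LYS2, of sulfur assimilation and lysine synthesis, were set apart in the double deletion alone. MET17 had 0.831 RPKM in snf2∆ and 2134 in ume6∆snf2∆ but 0.894 in WT and 1.30 in ume6∆, and LYS2 had 308 and 0.349 but 129.8 and 106. The libraries had been scaled by totals of 17.4 to 30.2 M reads, and the median gene had 936 to 1446 reads.

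Genes of chromosome IX stood apart in both libraries without UME6, and this touches each count of higher genes that includes them. The 195 kept genes of this chromosome had a median change of 0.93 in ume6∆ against WT, and 91 of them, or 46.7%, were higher while 0 were lower. The medians of the other 15 chromosomes lay between -0.16 and 0.09. In ume6∆snf2∆ against snf2∆, libraries not used in the first comparison, chromosome IX had a median of 0.86 and the others -0.09 to 0.02. The raised level ran along the whole chromosome. In 100 kb steps from its left end the medians were 0.82, 0.84, 1.17, 1.04 and 0.46 in ume6∆ against WT, the last over 15 genes, and 0.93, 0.83, 0.81, 1.02 and 0.82 in the second pair. The snf2∆ library did not share it, with a median of 0.06 against WT for these genes. DNA was not measured in these strains, so more copies of the chromosome and more RNA per copy cannot be told apart. Where a list count of genes higher in ume6∆ than in WT changes without the genes of chromosome IX, it is given both ways.

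**Figure D1:**
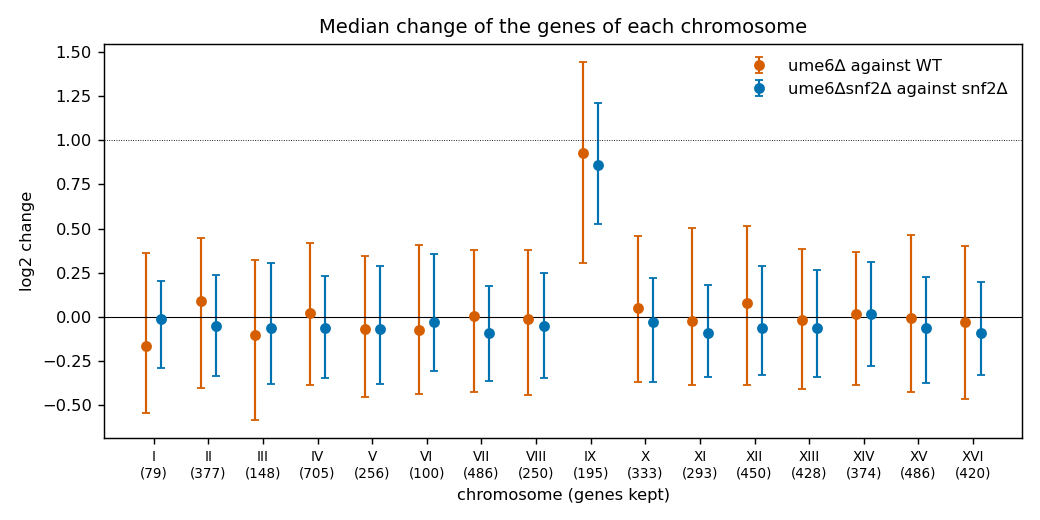
Median log2 change of the kept genes of each chromosome, with bars from the lower to the upper quartile, for ume6∆ against WT and for ume6∆snf2∆ against snf2∆. Chromosome IX lies at 0.93 and 0.86, and no other chromosome's median is above 0.09 in either pair.

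Among the 5858 kept genes 522 were higher in ume6∆ than in WT, 8.91% of them, and 445 were lower, 7.6%. At least 4-fold, 80 were higher and 78 lower. Without chromosome IX, 431 were higher and 445 lower. The median of all kept genes was 0.02. The split of calls depends on the scaling. With the values as deposited 260 were higher and 825 lower around a median of -0.27, and with upper quartile scaling 390 and 588 around -0.11. Of the higher genes 26 belong to the meiotic and sporulation list and 496 do not. Ribosomal protein genes alone made up 100 of the 522. Of the genes called higher, 60 were below 10 deposited RPKM in WT and passed the filter through other libraries, and 126 of the lower genes were below it in ume6∆. At the edge of the filter, MPC54 and VBA5 at means of 9.98 and 9.97 RPKM were left out and ATO2 and GAL1, both at 10.01, were kept. At the edge of the call FAL1 (0.999) was not called and ATG8 (1.0001) was, and on the lower side HMG1 (-0.996) was not and NTR2 (-1.0005) was.

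The second pair also differs in UME6, in libraries that the first comparison does not use. It differs besides in MET17 and LYS2, which the first pair does not. Both of its strains lack SNF2 and are of the alpha type by their transcripts, where WT and ume6∆ are of the a type. The 2 pairs are therefore not repeats of 1 difference. There 271 genes were higher, 4.63% of the kept genes, and 202 lower, 3.45%. Of the 522 genes higher in ume6∆, 143 or 27.4% were also higher in ume6∆snf2∆ than in snf2∆, which is 52.8% of that pair's higher genes. Of the 445 lower genes 54 or 12.1% were lower again, 26.7% of that pair's list. Chromosome IX held 49 of the 143 shared rises and none of the shared falls, and without it 94 of 431 higher genes were shared. Among the genes at least 4-fold higher 49 of 80 were shared, or 41 of 61 without chromosome IX, and among those at least 4-fold lower 16 of 78.

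**Figure D2:**
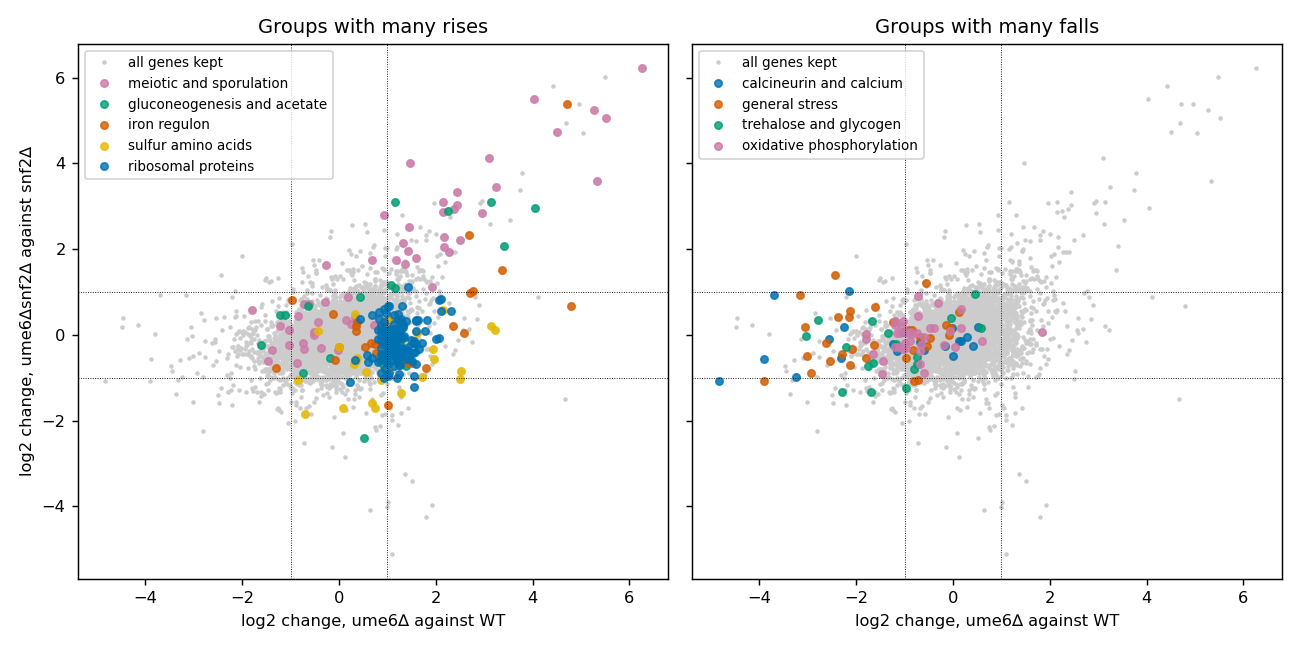
Log2 change of each kept gene in ume6∆ against WT on the horizontal axis and in ume6∆snf2∆ against snf2∆ on the vertical axis, with gene lists in colour and dotted lines at 2-fold. MET17 and LYS2, which are strain markers, and the line YLR154W-E are not drawn. Meiotic genes and several acetate genes lie high on both axes. Ribosomal protein, stress and calcium genes spread along the horizontal axis, with list medians of -0.19, -0.06 and -0.17 on the vertical one. Of the stress genes 2 were higher and 3 lower past 2-fold on the vertical axis.

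The order of the 4 libraries was counted for rises and falls. This order crosses mating type as well as SNF2, since WT and ume6∆ are of the a type by their transcripts and the others of the alpha type. In 386 of the 445 lower genes, 86.7%, WT was above all 3 other libraries, where 29.0% of all kept genes had that order. In 362 of the 522 higher genes, 69.3%, WT was below the 3 others, where 28.1% of all kept genes had that order. Among the 522 higher genes, both libraries without UME6 were above both libraries with it in 318, or 60.9%, against 21.8% of all kept genes. Since the call itself uses WT and ume6∆, these shares describe the lists and are not tests. Among the 445 lower genes, both libraries without UME6 were below both libraries with it in 283, or 63.6%, against 21.0% of all kept genes.

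Genes of inositol, arginine and acetate metabolism were among the 15 largest rises outside meiosis, and several hold the URS1 core. INO1, which encodes the enzyme that makes inositol phosphate from glucose 6-phosphate (chromosome X, 134332 to 135933), had 23.9 RPKM in WT, 3.26 in snf2∆, 1114 in ume6∆ and 272 in ume6∆snf2∆. Both libraries without UME6 were above both with it, and the ratio of ume6∆ to WT was 46.6 (43.9 to 49.5), a log2 change of 5.48 against 6.003 in the second pair. CAR1, arginase, had 17.1 RPKM in WT and 310.2 in ume6∆ (log2 4.11). Without SNF2 it was at 277 RPKM with UME6 and at 514 without it (log2 0.89). WT alone was low for CAR1. CAR2, the ornithine transaminase of the next step, had 22.9, 12.4, 275 and 84.2 RPKM in WT, snf2∆, ume6∆ and ume6∆snf2∆, changes of 3.53 and 2.67.

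To show what such promoters look like, 30-base windows around the core were read from the R64 genome of RefSeq, the assembly behind sacCer3. They are written 5′ to 3′ on the strand of the gene, with the core in capitals, as GGCGGC on that strand or GCCGCC where it lies on the other. All lie within 300 bases before the annotated start of the coding sequence.
INO1, chrX:136174-136203: agtatgcgcttcGGCGGCtaaatgcggcat
INO1, chrX:136062-136091: cacctctgcgttGGCGGCaatgttaatttg
CAR1, chrXVI:339777-339806: cacttagcggtaGCCGCCgaggggtctaaa
SIP4, chrX:265657-265686: gaccggtgttttGGCGGCtaaatttaaggg
SIP4, chrX:265691-265720: atctcagaactcGGCGGCaaaaaaaaaagt
ACS1, chrI:45133-45162: gtatataaactgGGCGGCtattctaagcat
ACS1, chrI:45230-45259: ggggtacgaattGCCGCCgagcctccgatg
ADY2, chrIII:133351-133380: tatcgcgggttgGGCGGCtatggcgccttc
RNP1, chrXII:47622-47651: atacaacaaataGCCGCCgaagttcctgta
LSO1, chrX:449029-449058: agtattGGCGGCtattttgcttttcctctg
The genes CAR1 and SIP4 lie on the plus strand and the others on the minus strand. INO1, SIP4 and ACS1 each hold the core at a pair of places. CAR2 and ALD6 have no match in this window, which says only that these letters are not in it.

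Genes for acetate use and the switch to growth without glucose rose with INO1, although all cultures were taken in mid-log growth in YPD. The glucose left at harvest is not given in the sources used here. Of 17 kept genes on the gluconeogenesis and acetate list 8 were higher, 47.1% against 8.91% of all kept genes, and 3 were lower, 17.6% against 7.6%. The median was 0.92, and 7 of the 8 were among the genes higher in the second pair, where the background was 4.63%. SIP4, a zinc cluster activator of gluconeogenic genes, had 4.66 RPKM in WT, 5.31 in snf2∆, 93.1 in ume6∆ and 47.9 in ume6∆snf2∆ (log2 4.06 and 2.95). ACS1, acetyl-CoA synthetase, had 7.46, 9.02, 73.9 and 85.5 RPKM in the same order (log2 3.15 and 3.11). ALD6, which makes acetate from acetaldehyde, had 50.8, 72.3, 551 and 306 RPKM (log2 3.41 and 2.07). For these genes both libraries without UME6 were above both libraries with it. ADY2, an acetate transporter, rose from 4.402 to 24.9 RPKM in ume6∆ and had 7.16 and 59.6 in the second pair.

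The same list also held genes that went the other way. ICL1, isocitrate lyase of the glyoxylate cycle, had 38.8 RPKM in WT and 12.02 in ume6∆ (log2 -1.61). CAT8, an activator of gluconeogenic genes, had 19.4 and 8.33 RPKM (log2 -1.13), and IDP2, a cytosolic isocitrate dehydrogenase, 20.3 and 8.09 (log2 -1.23). These 3 changed by -0.23, 0.47 and 0.47 in the second pair, so their lower level was not seen there. FBP1 and PCK1, the committed steps of gluconeogenesis, were below the filter.

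Of the 16 genes listed as known URS1 genes outside meiosis 15 were kept. Of these 6 were higher, 40% against 8.91% of all kept genes. The 1 lower gene is 6.67%, near the 7.6% of all kept genes. The higher genes were INO1, CAR1, CAR2, ACS1, HO and ATG8. HO, the endonuclease of mating type switching, had 21.5 RPKM in WT and 74.3 in ume6∆ (log2 1.74), and 1.89 and 6.54 in the second pair. The lower gene was PHR1, the DNA photolyase, which Ume6 is known to activate. It had 42.0 RPKM in WT and 10.6 in ume6∆, a change of -1.89, and 21.0 and 11.9 in snf2∆ and the double deletion, a change of -0.76. Its direction was opposite to that of INO1 in both pairs.

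RNP1, YHB1 and ULP2 were among the 15 largest rises and belong to no list. RNP1, a protein with RNA recognition motifs, had 1.73 RPKM in WT, 1.58 in snf2∆, 89.1 in ume6∆ and 66.9 in ume6∆snf2∆, a ratio to WT of 51.6 (37.4 to 73.1). ULP2, a protease that removes SUMO chains, had 37.4, 36.4, 333 and 222 RPKM (log2 3.12 and 2.58). It lies on chromosome IX, yet its changes were 2.19 and 1.72 above the chromosome's medians. YHB1, a flavohemoglobin that detoxifies nitric oxide, had 92.5 RPKM in WT and 692 in ume6∆ (log2 2.89) but 37.3 and 60.9 in the second pair (log2 0.69).

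Other genes of chromosome IX stood above its general level too. URM1, a ubiquitin-like protein that carries sulfur to tRNA, went from 55.1 to 295 RPKM, and NDC80, of the outer kinetochore, from 20.8 to 92.1. Their changes of 2.402 and 2.09 were 1.47 and 1.16 above the chromosome median. Outside the meiotic list 18 genes of this chromosome were 2-fold or more above its median in ume6∆ against WT, and 4 of them, ULP2, URM1, RRT14 and NDC80, also in the second pair.

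**Figure D3:**
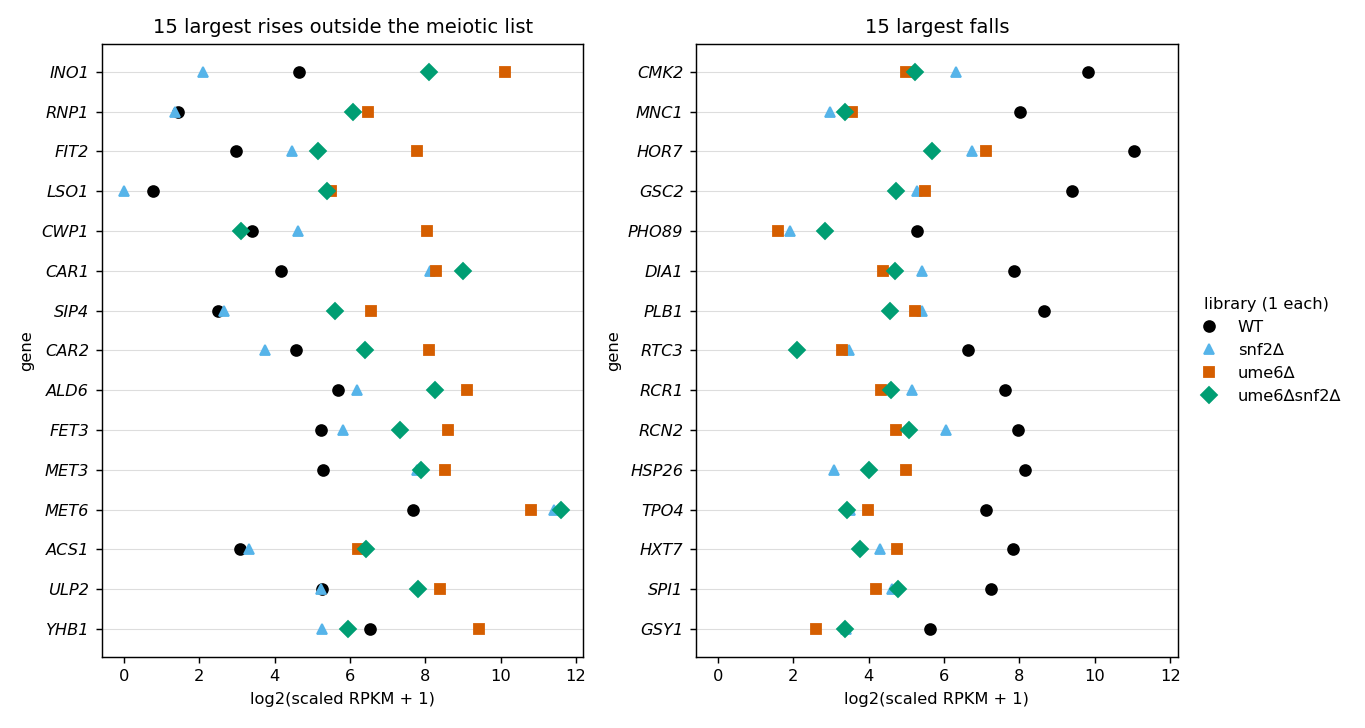
Level of the 15 genes with the largest rises outside the meiotic list and of the 15 with the largest falls, as log2(scaled RPKM + 1), 1 point a library. In 9 of the 15 rises the second pair was called higher too, and in 3 of the 15 falls it was called lower too. WT is the lowest of the 4 libraries in 8 of the 15 rises and the highest in all 15 falls.

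The URS1 core was more frequent before genes that rose than before other genes. The 6 letters GGCGGC, searched on both strands in the 300 bases before the start, were found in 5.20% of 5308 kept protein-coding genes and in 5.31% of all 5897 promoters. Among the 447 higher protein-coding genes the share was 14.8%, and outside the meiotic list 11.4% of 421. Among the 397 lower genes it was 5.54%, close to that of all kept genes. Of the genes higher in both pairs 30.6% of 124 held the core, and 20.4% of 98 outside meiosis. The genes of chromosome IX lower these shares. Without them the core was found in 45.3% of 75 shared rises, and in 35.3% of 51 outside meiosis. None of the 48 genes lower in both pairs held it.

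Read the other way, 276 kept genes held the core, of which 66 or 23.9% were higher in ume6∆ and 22 lower. Of the 5032 without it 7.57% were higher. The filter bears on these shares, since 29 of the 276 averaged below 10 deposited RPKM over WT and snf2∆ and passed through the libraries without UME6, and 25 of those 29 were called higher. With no filter 77 of 313 promoters with the core belonged to higher genes, 24.6%, against 7.32% of 5584 without it. In the second pair 17.8% of the genes with the core were higher, against 3.54% of those without. With the longer letters TCGGCGGC, which contain the core, 23 of 50 genes were higher in ume6∆ and 23 in the second pair, and 2 were lower in ume6∆. Most genes with the core were therefore not called in either direction. The genes with the core that were higher in both pairs outside meiosis included, besides those above, TIS11, ECM29, BTN2, IRC15 and ATG8, and, on chromosome IX, MGA2 and BCY1. MGA2, an activator of the fatty acid desaturase gene, had 85.9 and 263 RPKM in WT and ume6∆, and 107 and 323 in the second pair. BCY1, the regulatory subunit of protein kinase A, had 78.7 and 221 RPKM, and 75.5 and 176. Their chromosome had medians of 0.93 and 0.86 in the 2 pairs. The changes of MGA2, 1.60 and 1.59, and of BCY1, 1.48 and 1.21, were less than 2-fold above these medians.

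**Figure D4:**
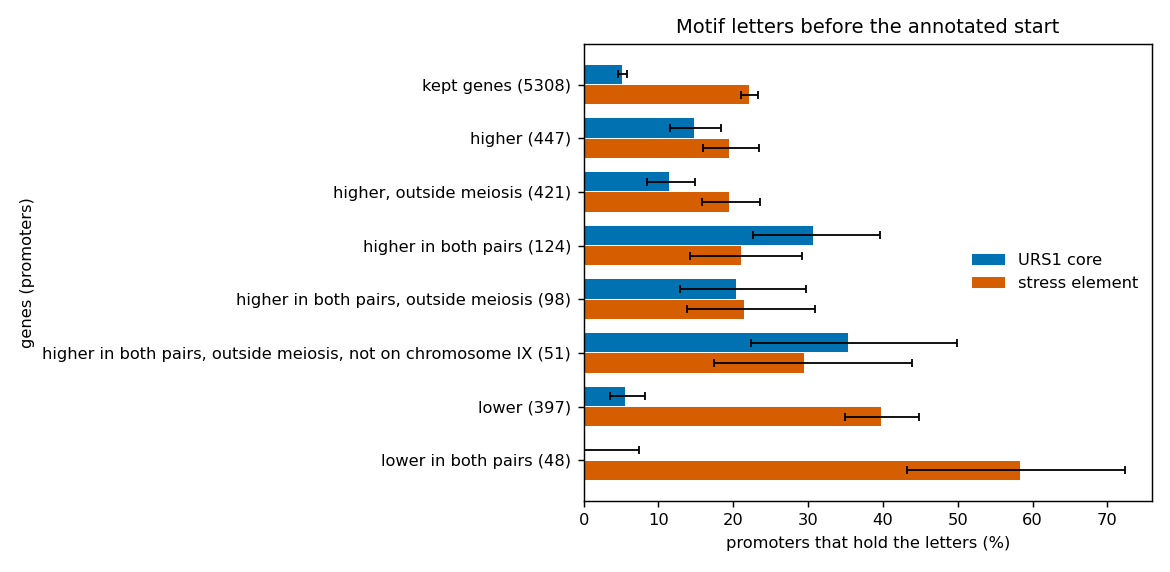
Share of promoters, as a percentage, that hold the URS1 core GGCGGC or the stress element AGGGG on either strand in the 300 bases before the annotated start, with 95% Clopper-Pearson intervals over genes. The URS1 core reaches 35.3% among genes higher in both pairs outside meiosis and chromosome IX, and the stress element 58.3% among genes lower in both.

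Genes of iron uptake formed the next group of rises. Yeast answers iron shortage through the activator Aft1, whose site holds the letters GCACCC. Of 29 kept genes on the iron regulon list 14 were higher in ume6∆ and 1 lower, 48.3% against the background of 8.91%, with a median of 0.97. In the second pair 4 were higher and 1 was lower, where the background was 4.63% and 3.45%, and the median was 0.09. FIT2, a cell wall mannoprotein that holds siderophore-bound iron, had 6.94 RPKM in WT, 21.3 in snf2∆, 219 in ume6∆ and 34.3 in ume6∆snf2∆. Its change was 4.79 against 0.66 in the second pair, and ume6∆ alone was high. FET3, the multicopper ferroxidase of high-affinity uptake, had 37.0, 55.5, 390.0 and 161 RPKM (log2 3.36 and 1.52), and FTR1, the iron permease it works with, 31.7, 77.3, 212 and 152 (log2 2.70 and 0.97). SIT1, a siderophore transporter, went from 14.7 to 92.4 RPKM, and had 9.93 and 10.3 in the second pair.

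LSO1 and TIS11 combine both kinds of letters. LSO1, a small ribosome-associated protein induced by low iron, had 0.725 RPKM in WT, 0 in snf2∆, 44.0 in ume6∆ and 40.8 in ume6∆snf2∆, a ratio of ume6∆ to WT of 60.7 (27.6 to 167). Both libraries without UME6 were at about the same level. TIS11, also known as CTH2, which destabilises mRNAs of iron-using proteins, had 5.44, 5.17, 43.1 and 11.5 RPKM (log2 2.78 and 1.02). The Aft1 letters were found in 65.5% of the 29 iron genes, against 3.84% of kept genes, and the URS1 core in 2 of the 29. Windows with the Aft1 letters in capitals show the promoters with the largest rises.
FIT2, chrXV:1059271-1059300: ctaagttcaaatGCACCCcccctcgccccg
LSO1, chrX:448885-448914: atcgagaatgttGCACCCttttttccaatc
FET3, chrXIII:388560-388589: atcttcaaaagtGCACCCatttgcaggtgc
TIS11, chrXII:416889-416918: ccgccgcaaaatGCACCCacattaaagaag
These are also written on the strand of the gene. CTR1, the high-affinity copper transporter on which Fet3 depends for copper, had 26.8 RPKM in WT and 162 in ume6∆ (log2 2.55), and 80.4 and 87.6 in the second pair. The zinc and copper list otherwise moved little. Of its 14 genes 1 was higher, 7.14% against 8.91% of all kept genes, and 2 lower, 14.3% against 7.6%. The lower genes were CUP2, the copper-sensing activator, at 156 and 38.8 RPKM, and ZRT1, the high-affinity zinc transporter, at 67.9 and 30.5.

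Sulfate assimilation and methionine synthesis were raised in ume6∆ against WT. Of 29 genes of sulfur amino acids 14 were higher, 48.3% against 8.91% of all kept genes, and 0 lower, around a median of 0.98. Without chromosome IX 13 of 28 were higher. In ume6∆snf2∆ against snf2∆ 0 were higher and 8 lower, around a median of -0.60, where 3.45% of all kept genes were lower. That pair also differs in MET17 of this pathway, and the part of that in these counts was not tested. In the first pair MET17 was at 0.894 RPKM in WT and 1.30 in ume6∆, so both of its strains nearly lacked this RNA. MET3, ATP sulfurylase at the head of the pathway, had 38.2 RPKM in WT, 365 in ume6∆, 217 in snf2∆ and 234 in the double deletion. MET6, methionine synthase, had 202, 1798, 2732 and 3141 RPKM in that order, and MET5, of sulfite reductase, 54.7, 319.5, 448 and 249. In all 14 genes called higher WT was the lowest of the 4 libraries. The values of these genes in both libraries without SNF2 were thus also above WT, and the changes of MET3 and MET6 in the second pair were 0.11 and 0.20. SER33, of serine synthesis, behaved alike at 65.9, 446, 280.4 and 248 RPKM and lies on chromosome IX. Of 54 other genes for amino acid synthesis 2 were higher, SER33 and LYS20, and 8 lower, 14.8% against 7.6% of all kept genes, with a median of -0.25. Without chromosome IX 1 of 50 was higher. Among the lower genes were ARG5,6 and ARG8 of arginine synthesis, at 180.0 and 58.4 and at 100.3 and 39.6 RPKM, and HIS4 of histidine synthesis, at 456 and 192. HIS4 was lower in the second pair too, at 462 and 136 RPKM, a change of -1.75.

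Ribosomal protein genes were raised by a modest amount. All 137 had a change above 0, from 0.22 to 2.31 with a median of 1.16. Of them 100 were higher, 73.0% against 8.91% of all kept genes, and 0 lower. In the second pair 1 was higher and 4 were lower, where the background was 4.63% and 3.45%, with a median of -0.19. The 4 largest changes, in RPS24B, RPL16A, RPL40A and RPL34B, were all on chromosome IX, where 5 of the genes lie. RPL16A, for example, had 514 RPKM in WT and 2228 in ume6∆, and 742 and 1093 in the second pair. RPS24B and RPS24A are 96.4% identical over 419 bases, so reads may be divided between them. Without chromosome IX 95 of 132 were higher and the median was 1.14. With the values as deposited 39 of 137 were higher, where 4.44% of all kept genes were, and the median was 0.85. The count thus rests on the scaling while the direction of the median does not. Genes of ribosome biogenesis moved less, with 1 of 69 higher (CIC1, of large subunit assembly, 92.2 and 246 RPKM), 0 lower and a median of 0.50.

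Glycolysis rose in part. Of 19 kept genes 4, or 21.1% against 8.91% of all kept genes, were called higher. The lower count was 1, or 5.26% against 7.6%, and the list had a median of 0.75. The higher genes encode abundant enzymes of fermentation. PDC1, pyruvate decarboxylase, had 3799 RPKM in WT and 11528 in ume6∆, and ENO2, an enolase, 4748 and 11930.2. TDH2, a glyceraldehyde 3-phosphate dehydrogenase, had 1426 and 5397, and ADH1 was the fourth. Their changes in the second pair were below 0, between -0.21 and -0.83. TDH2 and TDH3 are 95.8% identical over 999 bases. TDH1, the isozyme linked to slow growth, went the other way, from 1392 to 302 RPKM, and from 323 to 103 in the second pair (log2 -2.20 and -1.64).

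Meiotic genes are given only for scale. Of 96 listed genes 52 were kept, around a median of 1.05. Of these 26 were higher, 50% against 8.91% of all kept genes, and 6 lower, 11.5% against 7.6%. Without chromosome IX 24 of 50 were higher. All 26 were higher again in the second pair, where 4.63% of all kept genes were higher. Members silent in WT and snf2∆ could pass the filter only through the libraries without UME6. SAE3, a cofactor of the meiotic recombinase, had 0.471 RPKM in WT, 0.219 in snf2∆, 111 in ume6∆ and 89.7 in ume6∆snf2∆ (log2 6.25 and 6.22). The levels reached by INO1, CAR1 and ALD6 in ume6∆ were above that of SAE3, but their levels in WT were also higher.

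Genes that respond to calcium included the largest single fall. In yeast, calcium activates the phosphatase calcineurin, which moves the activator Crz1 into the nucleus. Of 21 genes on the calcineurin and calcium list 11 were lower in ume6∆ and 0 higher, with a median of -1.02, against a background of 7.6% lower. CMK2, a calmodulin-dependent protein kinase, had 905 RPKM in WT, 78.9 in snf2∆, 30.8 in ume6∆ and 36.6 in the double deletion. This was the largest fall, with a ratio to WT of 0.0340 (0.0320 to 0.0362) and log2 changes of -4.83 and -1.09. GSC2, the stress-induced glucan synthase subunit of the cell wall, had 673, 38.04, 44.3 and 25.3 RPKM (log2 -3.90 and -0.57), and RCN2, a regulator of calcineurin, 248, 65.5, 25.2 and 32.7 (log2 -3.25 and -0.98).

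The vacuolar calcium pump gene PMC1 and the calcineurin inhibitor gene RCN1 followed the same order, with 132 and 85.3 RPKM in WT and 25.7 and 17.2 in ume6∆. In snf2∆ they had 30.5 and 18.1. CRZ1 itself changed by -1.02. PHO89, a sodium-phosphate cotransporter, had 38.1 RPKM in WT and 2.00 in ume6∆, with 2.76 and 6.16 in the second pair. In all 11 lower genes of this list WT was the highest of the 4 libraries. In the second pair 1 of the 21 was lower, where 3.45% of all kept genes were. Letters of a Crz1 site, GNGGCTCA or GNGGCGCA, were in 1 of the 21 promoters, or 4.76%, and in 1.94% of kept genes. They were in 5.04% of all 397 lower protein-coding genes and in 0.895% of the 447 higher ones.

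General stress genes, which the activators Msn2 and Msn4 induce through the element AGGGG, were the list with the lowest median, -1.62. Of 32 kept genes 18 were lower, against 7.6% of all kept genes, and 0 higher. In the second pair 3 were lower and 2 higher, where the background was 3.45% and 4.63%, and the median was -0.06. HOR7 had 2091 RPKM in WT, 107 in snf2∆, 138 in ume6∆ and 49.8 in the double deletion. HSP26, a small heat shock protein, had 280.4, 7.43, 30.6 and 14.9 RPKM, and HSP12, another, 777, 5.04, 142 and 15.005. Both HSP26 and HSP12 were lower in snf2∆ than in ume6∆, and in the second pair they changed by 0.92 and 1.41. GAD1, glutamate decarboxylase, had 67.0, 9.87, 7.44 and 6.73 RPKM, and SPI1, a cell wall protein, 150.5, 23.4, 17.1 and 26.6. WT was the highest of the 4 in all 18 lower genes. The stress element was found in 71.9% of the 32 promoters, in 39.8% of all lower genes and in 22.1% of kept genes. HSP26 has no match in this window, which says only that these letters are not in it. Windows from GAD1, SPI1 and HOR7, all on the plus strand, show 1 match each in capitals. It reads AGGGG or, on the other strand, CCCCT. The SPI1 window holds another CCCCT, left in lower case.
GAD1, chrXIII:770626-770655: cacaccagaaaaAGGGGatcagtaaagtga
SPI1, chrV:468093-468122: atgacgttccttCCCCTcacccctcggctt
HOR7, chrXIII:774489-774518: tatttgggtaagCCCCTttctgttttcggc

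Reserve carbohydrate genes fell alongside. Of 17 genes for trehalose and glycogen 10 were lower, 58.8% against 7.6% of all kept genes, and 0 higher, with a median of -1.35. GSY1 and GSY2, the glycogen synthases, had 48.8 and 115 RPKM in WT, 5.08 and 23.8 in ume6∆, and 9.44 and 18.4 in snf2∆. GPH1, glycogen phosphorylase, had 129.8 and 17.9 RPKM in WT and ume6∆, and 7.81 and 10.3 in the second pair. Only GLC3, the branching enzyme, and TPS1, trehalose phosphate synthase, were among the 10 lower in both pairs. GLC3 went from 42.9 to 7.92 RPKM and from 16.7 to 6.01, and TPS1 from 215 to 65.1 and from 140.2 to 54.8.

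Glucose uptake shifted in its high-affinity members. Of 16 kept genes for hexose transport and sensing 6 were lower, 37.5% against 7.6% of all kept genes, and 0 higher, with a median of -0.30. HXT4 had 297 RPKM in WT, 35.6 in ume6∆, 23.7 in snf2∆ and 7.38 in the double deletion (log2 -3.02 and -1.56). HXT7 had 228, 25.7, 18.6 and 12.5 RPKM in that order, and HXT6 265, 69.1, 39.3 and 34.8. HXT6 and HXT7 are 99.8% identical over 1713 bases, so their reads cannot be assigned with certainty. MTH1, a glucose-responsive repressor of HXT genes, had 59.4 and 15.1 RPKM in WT and ume6∆.

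Respiration genes were lower by a smaller amount. Of 38 nuclear genes of oxidative phosphorylation 14 were lower, 36.8% against 7.6% of all kept genes, and 1 higher, with a median of -0.87, against 0 and 0 in the second pair with a median of 0.01. CYT1 and RIP1, cytochrome c1 and the Rieske protein of complex III, had 98.0 and 110.3 RPKM in WT and 27.5 and 31.1 in ume6∆, and 32.0 and 49.5 in snf2∆. SDH2 of complex II had 59.7, 21.4 and 48.1, and ATP1 of the ATP synthase 540.0, 195 and 312, in WT, ume6∆ and snf2∆. The higher gene was NDE1, the external NADH dehydrogenase, at 42.4 and 154 RPKM. With the values as deposited 23 of 38 were lower, where 14.1% of all kept genes were. The citric acid cycle gave 1 higher of 12, PYC1, pyruvate carboxylase (97.0 and 234 RPKM), and 1 lower, CIT1, mitochondrial citrate synthase (172 and 64.03). The letters CCAAT, bound by the respiratory activator Hap2-Hap3-Hap5, were in 89.5% of the 38 promoters and 42.4% of kept genes.

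Other transport and turnover lists had fewer lower genes, against 7.6% of all kept genes. For nitrogen, 4 of 23 or 17.4% were lower, among them MEP2, the ammonium permease, at 33.2 and 6.91 RPKM, and GAT1, a GATA activator, at 49.7 and 17.3, and only CAR1 and CAR2 were higher. For phosphate, 4 of 21 or 19.0% were lower and 0 higher. PHO84, the high-affinity transporter, had 605 RPKM in WT, 137 in ume6∆ and 31.5 in snf2∆, and it overlaps a gene on the opposite strand that this library type cannot separate. For autophagy and vacuolar proteases 6 of 24, or 25%, were lower and 1 was higher, led by PRB1, vacuolar protease B, at 459 and 85.6 RPKM. The cell wall list had 3 of 34 higher, 8.82% and near the 8.91% of all kept genes, and 5 lower, 14.7%. CWP1, a mannoprotein of the wall, had 9.56 RPKM in WT and 266 in ume6∆, with 23.5 and 7.67 in the second pair, while PLB1, a phospholipase B outside the list, had 404 and 36.2. Others of the largest falls belong to no list. RCR1, a membrane protein linked to chitin deposition, had 196 RPKM in WT, 19.1 in ume6∆ and 34.7 in snf2∆, and TPO4, a polyamine exporter, 138, 14.6 and 10.4. MNC1 had 259, 10.8 and 6.90, and RTC3 99.2, 8.75 and 10.1. DIA1, at 230.1, 19.9 and 41.3 RPKM, overlaps a gene on the opposite strand.

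A few falls were seen in both pairs. CIT2, the peroxisomal citrate synthase, had 244 RPKM in WT and 33.9 in ume6∆, and 178 in snf2∆ and 37.2 in the double deletion, changes of -2.81 and -2.23. Here the 2 libraries without UME6 were low and the 2 with it high. DLD3, which like CIT2 is a known target of the retrograde activators Rtg1 and Rtg3, had 505 and 150.5 RPKM, and 630.1 and 269.6. AGP2, a plasma membrane regulator of polyamine and carnitine transport, had 39.7 and 7.71, and 27.4 and 10.6. HSP104, a disaggregase, had 258 and 73.7, and 138 and 58.0. Of the 48 protein-coding genes lower in both pairs 58.3% held the stress element in the promoter window.

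Other lists gave few calls, with counts to be read against 8.91% higher and 7.6% lower among all kept genes. Phospholipid synthesis had 1 of 24 genes higher, INO1, and 0 lower, with a median of 0.02, although the Ino2-Ino4 letters CATGTGA stand in 12 of its 24 promoters and in 2.15% of those of kept genes. Fatty acid synthesis had 1 of 17 higher, MGA2 on chromosome IX, and fatty acid oxidation 1 of 18 higher and 1 lower. FOX2, of peroxisomal beta-oxidation, was the higher one, at 10.3 and 34.9 RPKM, and at 10.02 and 61.6 in the second pair. Ergosterol synthesis had 2 of 24 higher and purine synthesis 0 of 15 in either direction. Chaperones had 2 of 23 higher and 2 lower, histones 2 of 11 higher, and a-cell and mating genes 1 of 24 higher and 1 lower. The higher gene, BAR1, lies on chromosome IX, as does MGA2, so without it both lists have 0 higher. Of the 12 genes of daughter separation 1 was lower, PRY3, though none had a change above 0. Of 18 subunits and partners of the corepressors that Ume6 recruits 1 was higher, DPB4, at 29.9 and 83.0 RPKM, and SIN3 had 125 and 70.9 (log2 -0.80).

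**Figure D5:**
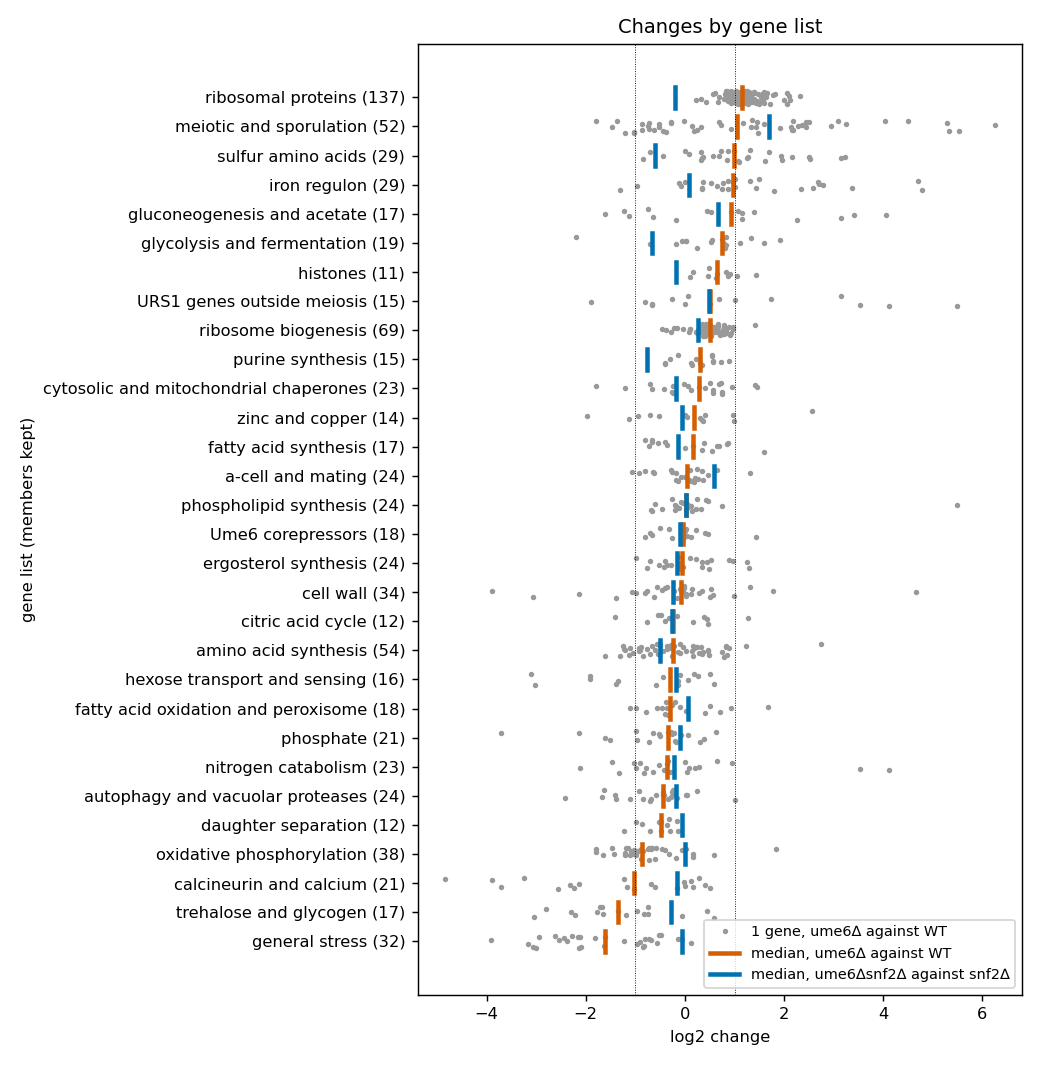
Log2 change of each kept member of 30 gene lists in ume6∆ against WT (grey points), with the list median in that pair and in ume6∆snf2∆ against snf2∆, and dotted lines at 2-fold. Medians of the 2 pairs lie close for gluconeogenesis and for the known URS1 genes and apart for ribosomal proteins, sulfur, iron, respiration and stress.

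Splicing efficiency, deposited as a fraction per intron, changed in few genes outside meiosis. Of 289 introns compared 24 were higher by 0.1 or more in ume6∆ and 11 lower, and the median difference was 0.0005. Of 11 introns in meiotic genes 9 were higher, with a median difference of 0.277. Several of these 11 start from a fraction of 0 in WT. SAE3, MEI4, PCH2 and MND1 did so in hosts at 0.471, 3.14, 5.20 and 5.55 RPKM. The rise of MND1, 0.0955, is not among the 9. A fraction of 0 at such levels may reflect too few reads, so better splicing cannot be read from it. SPO1, SPO22 and REC114 rose from 0 to 0.57, 0.277 and 0.325 in hosts at 10.8, 12.1 and 10.4 RPKM in WT. REC102, DMC1 and REC107 had WT fractions above 0, at 0.332, 0.312 and 0.0368. Of 104 introns in ribosomal protein genes 3 were higher and 1 lower. RPL22B had the largest rise outside meiosis, from 0.165 in WT to 0.666 in ume6∆, with 42.2 and 132 RPKM. USV1, a zinc finger regulator, had the largest fall, from 0.571 to 0.202, with 18.0 and 4.42 RPKM. The reads behind each fraction are not known, so no interval is given.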

How the data were processed

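RPKM values were deposited by the authors in 1 column a strain, and splicing efficiency as a deposited fraction per intron, by a formula not given in the sources used here. Per the labels' protocols, RNA was extracted with hot phenol, treated with DNase and prepared by TruSeq V2. That kit keeps no strand, so genes that overlap on opposite strands share reads. The submitters' processing notes name sacCer3, CASAVA and STAR 2.4.0 without their roles. How reads were counted, and on which annotation, is not given in the sources used here.

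Of 6659 genes, 5989 matched the RefSeq R64 annotation by name, and 670 had no position. RPKM was divided by 1.06 (WT), 0.984 (snf2∆), 0.857 (ume6∆) and 1.10 (ume6∆snf2∆). A pseudocount of 1 RPKM was added before taking log2, which understates the change of low genes. Ratios carry no pseudocount. RPKM times gene length gave whole reads for 99.5% to 99.6% of values above 0 within 0.05 reads. Intervals use those reads and cover counting error only, since PCR copies are not independent molecules. No test across strains was run, since no strain has a replicate. A joint fit of UME6 over both SNF2 backgrounds, which would take the difference between the pairs as error, was not run, nor was a count model on the recovered reads.

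The genes, the 30 gene lists and the comparisons were chosen with earlier results of these data known. Named genes are the 15 largest rises outside the meiotic list, the 15 largest falls and the 4 largest changes of each list, among protein-coding genes with a standard symbol. Genes named beyond that rule, and the account by chromosome, were chosen after their values were seen. Alternatives were other scalings, pseudocounts, filters, a 3-fold call and longer URS1 letters. Near-identical copies were found with blastn 2.17.0 at 95% identity or more. Python 3.11.15, numpy 2.4.6, pandas 2.3.3 and scipy 1.17.1 were used, and the calculation was tested on simulated data.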

Additional observations from a re-analysis of the deposited data

Results flagged for a closer look

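In 4 of the named genes the difference without Ume6 was past 2-fold in opposite directions in the 2 pairs of libraries. Each value below is the change in ume6∆snf2∆ against snf2∆ minus the change in ume6∆ against WT, on the log2 scale, and with 1 library a strain the difference was not tested. CWP1, the cell wall mannoprotein, gave -6.16, from 4.66 in ume6∆ against WT and -1.50 in the second pair. SUL2, a sulfate permease, gave -3.53, from 2.5 and -1.03. Its RPKM were 14.9998 for WT and 89.3 for ume6∆, then 146 for snf2∆ and 70.8 for ume6∆snf2∆. NCW2, a cell wall protein, gave 3.16, from -2.14 and 1.02, with 553, 125, 49.3 and 101 RPKM in that order. SPL2, an inhibitor in the phosphate response, gave 2.84, from -1.51 and 1.32, with 37.4, 12.5, 0.798 and 3.50 RPKM. In NCW2, SPL2 and SUL2 the WT library alone is the highest or the lowest of the 4, while in CWP1 ume6∆ alone is high.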

How the results depend on the processing

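No paired analysis was possible because each strain has 1 library, so the groups compared share no second replicate number. A fit with SNF2 status as a block was not run. Without the median ratio scaling, as deposited, calls went to 260 higher and 825 lower, while the median of all kept genes moved from 0.02 to -0.27. Upper quartile scaling gave 390 and 588 and a median of -0.11. As deposited, iron had 2 lower, sulfur 2 lower, gluconeogenesis 5 higher, oxidative phosphorylation 23 lower and ribosomal proteins 39 higher. Under upper quartile scaling and under a pseudocount of 0.5 iron had 2 lower, and under a pseudocount of 5 gluconeogenesis had 1 lower. The medians of phospholipid synthesis, fatty acid synthesis, chaperones, zinc and copper, and mating genes change sign with the values as deposited. At 3-fold 150 genes were higher and 147 lower. At that fold iron had 9 higher and 0 lower, sulfur 9 higher, gluconeogenesis 4 higher and 1 lower, oxidative phosphorylation 3 lower and ribosomal proteins 15 higher. The URS1 share was 5.14% of higher and 0.504% of lower genes with the longer letters, and 23.7% and 3.17% with the core at 3-fold. Leaving out the genes of chromosome IX, an alternative added after the data were seen, left 431 higher and 445 lower. Of 605 values of named genes under other scalings and pseudocounts 0 were counted as changed in direction. Such a reversal was counted only for named genes past 2-fold. Their changes were too large for these alternatives to reverse, so the 0 is not a check. Of 92 named genes past 2-fold, 4 were no longer past it as deposited, 1 under upper quartile scaling and 2 with a pseudocount of 5. A floor of 3 reads is 0.0995 to 0.172 deposited RPKM for a gene of 1 kb, far below the filter on the mean. In WT, FIT2 at 7.34 deposited RPKM had 94 reads and FOX2 at 10.9 had 819. A gene kept through other libraries can still rest on few reads in 1 library, as LSO1 did with 6 in WT.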

Other observations

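Small nucleolar RNA genes, which guide modification of ribosomal RNA, were raised in ume6∆ against WT. Of 62 kept 26 were higher, or 41.9% against 8.91% of all kept genes, and their median change was 0.91. In ume6∆snf2∆ against snf2∆ 4 were called higher and 20 were called lower, around a median of -0.28. Of all kept genes 4.63% were higher and 3.45% lower in that pair. Recovery of short RNAs by library preparation was not measured, and its part in these values was not tested.

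Genes within 30 kb of a chromosome end made up 10.2% of the lower genes with a position, 41 of 401, and 2.74% of the higher ones, 13 of 474. They were 4.39% of all kept genes with a position.

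A line listed as YLR154W-E, which did not match the annotation, had 93.3 scaled RPKM in WT, 461 in snf2∆, 35344 in ume6∆ and 1866 in the double deletion, a log2 change of 8.55 in ume6∆ against WT. It was the largest rise in the table. The line has no position here, so the RNA its reads come from was not examined, and ribosomal RNA left after depletion was not measured.

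HIS3 had 176 RPKM in WT and 96.5 in ume6∆ although the strains are labelled his-, and the form of that allele is not given in the sources used here. URA3 and LEU2 had 0 to 2 reads in each library.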
